A study of Mus musculus with 42 samples.

Results

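The neurotrophin genes Bdnf and Ntf3 and the receptor genes Ntrk2, Ntrk3, Ngfr and Sort1 were followed in mouse cerebellum under intermittent fasting. The 6 genes were matched by symbol and make up 6 of the 35275 genes listed in each of the 2 deposited count tables, and all 6 passed the filter on low counts in every fit. The mice were male C57BL/6 (C57/BL6NTac in the design text). From 3 months of age they were fed ad libitum (AL), fasted for 16 h each day (IF16) or fasted for 24 h on alternate days (EOD), and cerebellum was taken after 3 months, at 6 months of age. Further mice were fed freely for 2 months after each regimen and gave tissue at the age of 8 months. These groups are written AL-R, IF16-R and EOD-R. They are called refed below, although AL-R mice, the controls, were never fasted. Each group had 5 RNA-seq libraries, and all 30 were of frozen cerebellum. The labels do not say in words that each library is a separate animal, and the p-values measure the spread between libraries.

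Neurotrophins are secreted growth factors that support the survival, differentiation and synaptic function of neurons. BDNF, the product of Bdnf, binds the receptor tyrosine kinase TrkB (Ntrk2), and neurotrophin-3 (Ntf3) binds mainly TrkC (Ntrk3). The p75 neurotrophin receptor (Ngfr) binds all mature neurotrophins and, together with sortilin (Sort1), their uncleaved precursors. In the cerebellum BDNF and TrkB act in granule cell migration and synapse formation, NT-3 and TrkC in granule and Purkinje cell development, and p75 is prominent in immature granule cells and Purkinje cells.

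Bdnf is transcribed from several alternative starts, each with a promoter of its own, and some of these answer to neuronal activity through cyclic AMP response elements (CRE), the binding motif of the factor CREB. The deposited counts are per gene and sum over all of its starts and transcript forms. Promoter windows of 300 bases (250 before to 50 after a start, RefSeq, GRCm38.p6) were at hand for 4 of the 6 genes, 11 windows in all, of which 7 were of Bdnf. These windows were searched on both strands for the CRE palindrome TGACGTCA, the CRE-like element TCACGTCA, the CRE core TGACG, which the first also holds and the second holds on its other strand, and the E-box CACGTG. Start 3 of Bdnf, counted in the direction of transcription, on the plus strand at chr2:109692186-109692485, was the only window of the 11 to hold TCACGTCA or the core, and TCACGTCA begins 38 bases before the start. Start 1 of Bdnf, chr2:109674450-109674749 on the plus strand, held none of the 4 motifs. The upstream start of Ntf3, chr6:126166695-126166994 on the minus strand, held the only E-box of the 11 windows. Over all promoter windows of the same length, 0.441% held TCACGTCA, 1.79% TGACGTCA, 20.8% TGACG and 7.15% CACGTG. These 3 windows are shown because they are starts of the 2 ligand genes, with and without such letters. Capitals mark TCACGTCA in the Bdnf window and CACGTG in the Ntf3 window, a match is a description of letters only, and the counts do not say which start was used.
Bdnf start 3: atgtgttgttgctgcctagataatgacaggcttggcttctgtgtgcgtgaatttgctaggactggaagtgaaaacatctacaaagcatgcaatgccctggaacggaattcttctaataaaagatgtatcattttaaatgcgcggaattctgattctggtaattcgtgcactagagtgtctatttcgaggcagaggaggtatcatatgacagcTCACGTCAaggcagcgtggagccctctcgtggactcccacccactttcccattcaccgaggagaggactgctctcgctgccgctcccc
Bdnf start 1: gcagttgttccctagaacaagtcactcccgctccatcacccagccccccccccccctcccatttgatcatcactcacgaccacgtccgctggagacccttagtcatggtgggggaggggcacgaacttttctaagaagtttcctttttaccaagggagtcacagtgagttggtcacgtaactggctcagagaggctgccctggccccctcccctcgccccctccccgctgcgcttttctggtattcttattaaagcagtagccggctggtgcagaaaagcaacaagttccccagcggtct
Ntf3 upstream start: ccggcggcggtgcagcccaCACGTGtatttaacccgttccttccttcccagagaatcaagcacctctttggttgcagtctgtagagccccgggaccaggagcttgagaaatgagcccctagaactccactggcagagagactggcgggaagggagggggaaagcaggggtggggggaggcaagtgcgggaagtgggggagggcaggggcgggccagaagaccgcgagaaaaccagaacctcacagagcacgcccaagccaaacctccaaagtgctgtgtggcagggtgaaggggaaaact

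Total counts were 26799825 to 36167435 per library, and the 6 genes had between 51 counts (the lowest library of Ntf3) and 14539 counts (the highest of Ntrk2). Markers of granule cells and Purkinje cells, 8 of 8 in each list, were present in every group. Their mean levels were 8.7 to 9.18 and 9.01 to 9.31 log2(CPM + 1) per library (CPM, the counts of a gene relative to the TMM-scaled library total). Of 6 brainstem markers 5 averaged below 1 CPM over all libraries, and the sixth, Slc6a2, the noradrenaline transporter, ran from 0.232 to 10.4 CPM. Libraries differed in further features that no group label gives. The length gradient, the slope of log2 CPM on log2 gene length, was 0.855 and 0.905 in AL replicates 4 and 5, 0.894 in IF16 replicate 1 and 1.14 in EOD replicate 4, against 0.975 to 1.12 in the other 26. The mean of 11 choroid plexus markers, from the tissue that makes cerebrospinal fluid, ranged from 1.84 to 5.42 log2(CPM + 1). Their sum was 153 to 5100 CPM per library, with none at 0 in a whole group. These features are given below beside the results they move with.

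Per unit of transcript length, Ntrk2, Sort1 and Ntrk3 were far more abundant than the ligands, and Ngfr stood near the ligands. The deposited FPKM values (fragments scaled by transcript length and library total) had medians over 30 libraries of 43.3 for Ntrk2, 32.4 for Sort1 and 22.7 for Ntrk3. Medians of Bdnf, Ngfr and Ntf3 were 3.45, 2.5 and 1.83 FPKM. The ranges of the first 3 genes (10.3 to 48.8 FPKM) lay wholly above those of the other 3 (1.12 to 5.01 FPKM). Ntrk2 stood at the percentile 88.8 of the 15006 protein-coding genes tested by mean FPKM and Ntf3 at 26.7.

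The rest of the family ran from barely detected to very abundant. Ntf5 (neurotrophin-4) had 1 to 29 counts per library. Nradd, a relative of Ngfr, had a median of 1.17 FPKM. Among the sortilin relatives, Sorl1 was the most abundant with a median of 72.1 FPKM, above Sort1, and Sorcs3, Sorcs2 and Sorcs1 had 4.85, 2.25 and 1.56 FPKM.

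**Figure D1:**
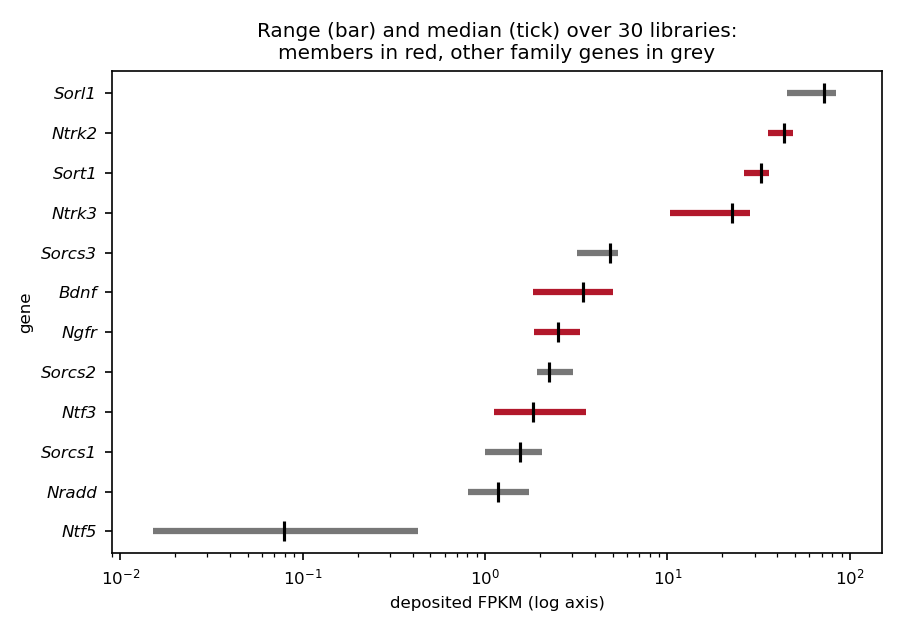
Deposited FPKM (log axis) of the 6 genes (red) and of 6 other family genes (grey), with a bar from the lowest to the highest of 30 libraries and a tick at the median. Ntrk2, Sort1 and Ntrk3 lie above the other 3 red genes without overlap, and Sorl1 has the highest median of the genes drawn, 72.1 FPKM.

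The ligand Bdnf had the largest difference of the 6 genes between the fasting groups and AL (ENSMUSG00000048482, chromosome 2, 109674700 to 109727007, mm10, plus strand). In AL replicates 1 to 5 it stood at 14.6, 11.8, 12.9, 9.72 and 10.3 CPM. In IF16 it stood at 14.2, 12.4, 19.1, 18 and 17.6 CPM. In EOD it stood at 16.8, 21.4, 20.4, 18.6 and 12.8 CPM. Of 5 libraries each, 3 of IF16 and 4 of EOD lay above the highest AL library, and the groups overlapped. The mean was 11.8 ± 1.99 CPM for AL, 16.2 ± 2.82 CPM for IF16 and 18 ± 3.43 CPM for EOD (SD, n = 5). The log2 fold change of EOD over AL was 0.60 (SE 0.151, 95% interval 0.28 to 0.92, a fold of 1.52), with an edgeR unadjusted p of 0.000981 and an adjusted p of 0.203. That of IF16 over AL was 0.46 (SE 0.151, interval 0.14 to 0.77, a fold of 1.37), with an edgeR unadjusted p of 0.00795 and an adjusted p of 0.363.

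By edgeR's quasi-likelihood test, adjusted over all genes, 0 of the 6 genes passed in EOD against AL, where 0.0664% of 16577 genes passed, and 0 in IF16 against AL, where 0.0483% passed. At an unadjusted p under 0.05, Bdnf was the 1 member of 6 in each comparison, beside 14.4% of all genes in EOD and 9.92% in IF16. DESeq2 called Bdnf in EOD against AL (log2 fold change 0.61, adjusted p = 0.0259), where it called 0.812% of the genes it tested, and did not call it in IF16 (0.46, adjusted p = 0.19). Both comparisons share the AL libraries. Over all other fits of EOD against AL the adjusted p of Bdnf ran from 0.106 to 1. Between EOD and IF16 the log2 fold change was 0.15 (SE 0.15, interval -0.17 to 0.46, edgeR adjusted p = 0.977), a comparison in which 0% of all genes and 0 of the 6 passed, and in which 3.62% of all genes and 0 of the 6 had an unadjusted p under 0.05.

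After refeeding, Bdnf did not differ between groups beyond its spread. AL-R replicates 1 to 5 had 9.31, 13.2, 16.3, 12.9 and 14 CPM. IF16-R had 8.71, 14.6, 15.1, 15.9 and 16.3 CPM, and EOD-R had 7.72, 12.6, 16.1, 17.5 and 15.5 CPM. In all 3 refed groups replicate 1 was the lowest, and the groups overlapped over nearly their whole range. The means were 13.1 ± 2.53, 14.1 ± 3.11 and 13.9 ± 3.88 CPM (SD, n = 5). The log2 fold changes against AL-R were 0.10 in IF16-R (interval -0.30 to 0.50, edgeR adjusted p = 0.895) and 0.08 in EOD-R (interval -0.32 to 0.48, edgeR adjusted p = 0.946). The interval of IF16-R holds the 0.46 of IF16, and that of EOD-R ends below the 0.60 of EOD. The direct test of the change between the 2 collections gave -0.52 for EOD (SE 0.264, interval -1.06 to 0.02, edgeR unadjusted p = 0.0572, adjusted p = 0.494) and -0.35 for IF16 (SE 0.264, interval -0.89 to 0.19, edgeR adjusted p = 0.814). A change of the difference with refeeding was therefore not shown for Bdnf.

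**Figure D2:**
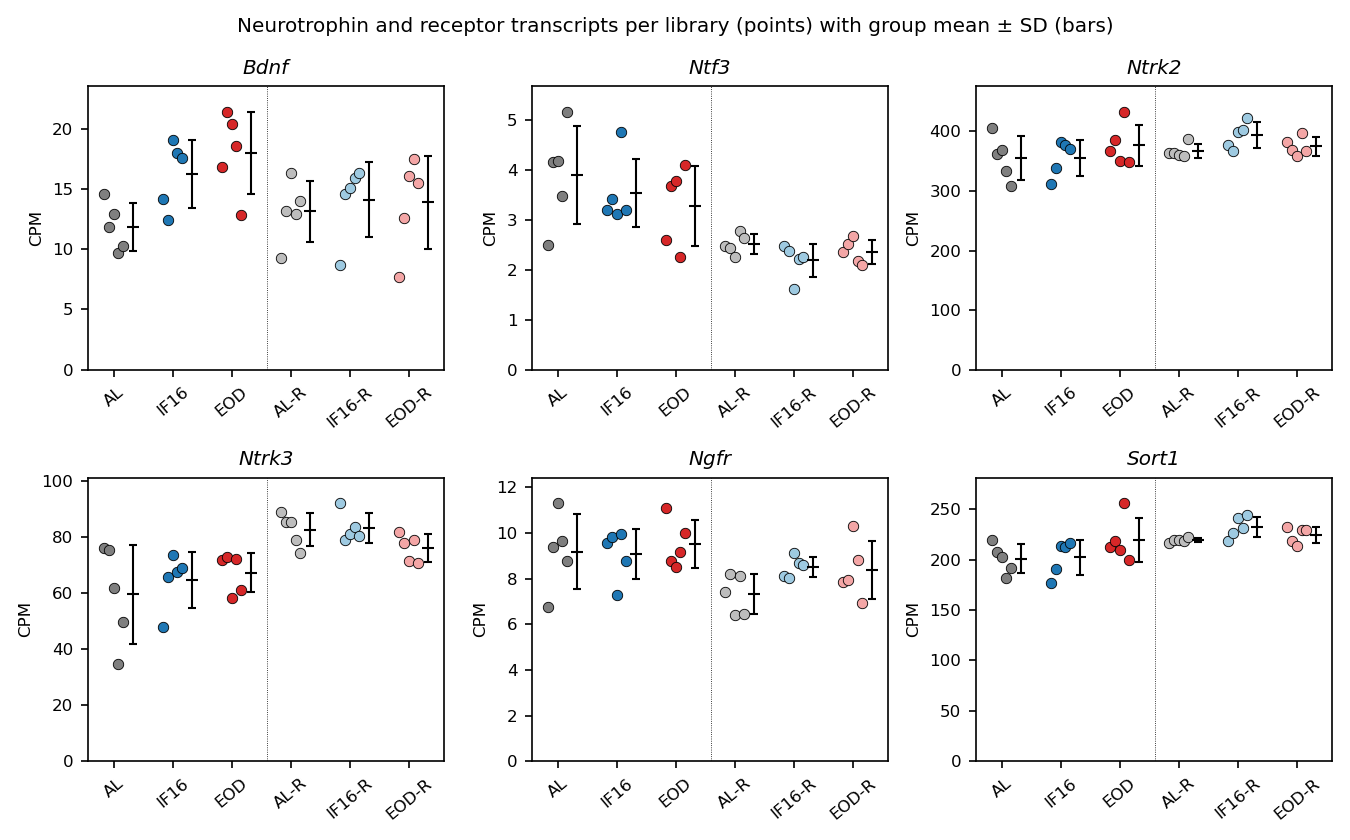
CPM of the 6 genes in each of 30 libraries (points, 5 per group) with the group mean ± SD (bars), the dotted line parting the groups collected at 6 months (left) from those at 8 months (right). Bdnf is at 11.8 CPM in AL and 18 CPM in EOD with overlapping libraries, and Ntrk3 in AL spreads from 34.8 to 76.1 CPM.

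Within groups, Bdnf varied from library to library more than most genes of its level, and it varied with Eomes. Its within-group SD of 0.333 log2 units was at the percentile 94.6 of the 500 genes nearest to it in level. Over 30 libraries centred on their group means, the 2 genes most like Bdnf among 11051 protein-coding genes were Spry4 (Pearson r = 0.937), an inhibitor of receptor tyrosine kinase signalling, and Eomes (r = 0.918). Eomes encodes a T-box factor that in the adult cerebellum marks unipolar brush cells, excitatory interneurons concentrated in the vestibular lobules. The r with Eomes was 0.91 in the 15 libraries of the regimens and 0.94 in the 15 refed ones. Eomes was picked by its r over all 30 libraries, so neither value is a separate check. In each refed group replicate 1 was the lowest for both genes, with Eomes at 19.6 (AL-R), 19.3 (IF16-R) and 15.9 CPM (EOD-R). These values describe the libraries, whose points share depth, dissection and RNA preparation.

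In both fasting groups against AL the Eomes level also differed in the direction of Bdnf. From AL to AL-R it went the other way, with a log2 fold change of -0.33 (SE 0.337) against 0.15 for Bdnf. The mean of Eomes was 48 ± 7.17 CPM for AL, 67.8 ± 19.5 CPM for IF16 and 78.1 ± 17.2 CPM for EOD, and 38.2 ± 14.6, 54.6 ± 22.4 and 48.9 ± 26.7 CPM in AL-R, IF16-R and EOD-R (SD, n = 5). EOD libraries ran from 51.7 to 96 CPM and AL libraries from 39.2 to 58.8 CPM, so the groups overlapped. The log2 fold change of Eomes was 0.70 in EOD against AL (SE 0.192, edgeR adjusted p = 0.228) and 0.50 in IF16 against AL (SE 0.192, edgeR adjusted p = 0.429). With the log2 level of Eomes as a covariate, a fit added after the data were seen, the Bdnf difference was 0.13 in EOD (edgeR unadjusted p = 0.233) and 0.14 in IF16 (edgeR unadjusted p = 0.148). In bulk tissue fewer cells of a type and less RNA per cell cannot be told apart, and since Eomes moved with the groups, a regimen effect and a difference in tissue content cannot be told apart by that fit either. The summed level of the 6 brainstem markers, most of it Slc6a2, also moved with the regimens: its median was 1.77 CPM in AL (0.465 to 7.88), 4.62 CPM in IF16 (1.58 to 11.5) and 6.63 CPM in EOD (2.14 to 11.7), with overlapping ranges. In AL-R, IF16-R and EOD-R it was 1.4, 0.7 and 0.841 CPM, and its part in the Bdnf and Eomes differences was not tested. A further marker of unipolar brush cells, Lmx1a, was at 0.909 to 3 CPM and had an r of -0.38 with Bdnf. The r of Bdnf with the length gradient was 0.68 over the regimen libraries and 0.12 over the refed ones. With the length gradient as a covariate the Bdnf difference was 0.43 in EOD and 0.37 in IF16 (edgeR unadjusted p of 0.00314 and 0.00522). Without the 4 libraries of outlying gradient it was 0.45 and 0.36 (edgeR unadjusted p of 0.0254 and 0.0637).

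**Figure D3:**
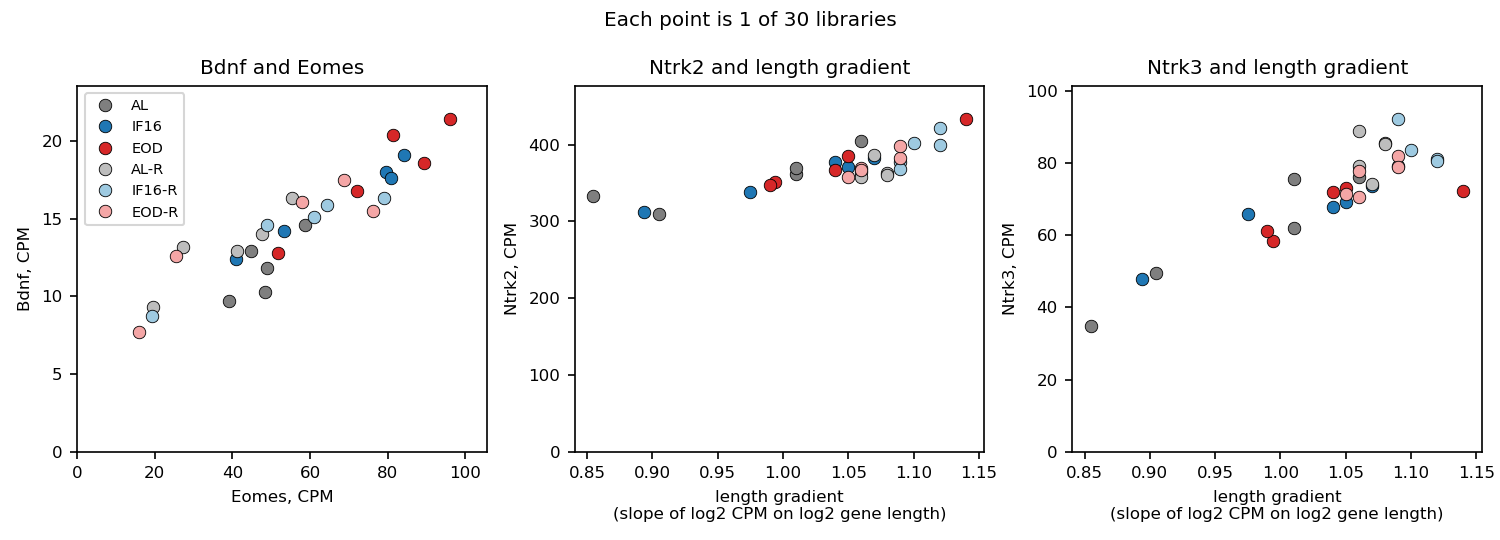
Left, Bdnf against Eomes (CPM). Middle and right, Ntrk2 and Ntrk3 (CPM) against the length gradient. Each point is 1 of 30 libraries coloured by group. The lowest Bdnf library, 7.72 CPM, has the lowest Eomes level, 15.9 CPM, and the highest, 21.4 CPM, has the highest, 96 CPM. The lowest Ntrk3 library, 34.8 CPM, has the lowest gradient, 0.855.

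The other ligand, Ntf3, was the least abundant of the 6 and did not differ between the regimens (ENSMUSG00000049107, chromosome 6, 126101413 to 126166744, mm10, minus strand). AL replicates 1 to 5 had 2.5, 4.16, 4.18, 3.47 and 5.16 CPM. IF16 had 3.2, 3.41, 3.12, 4.75 and 3.2 CPM, and EOD had 2.59, 3.67, 3.78, 2.26 and 4.09 CPM. The range of AL held all 5 IF16 libraries and all but 1 of EOD. The log2 fold changes were -0.14 for IF16 (interval -0.55 to 0.28) and -0.24 for EOD against AL (interval -0.66 to 0.17), with edgeR adjusted p of 0.795 and 0.501. These intervals are wide and reach down to folds of 0.681 and 0.632. Refed groups had Ntf3 means of 2.51 ± 0.204 CPM (AL-R), 2.19 ± 0.334 CPM (IF16-R) and 2.36 ± 0.241 CPM (EOD-R; SD, n = 5), with 1.62 to 2.78 CPM over the 15 libraries. The differences from AL-R were -0.20 in IF16-R (interval -0.46 to 0.06) and -0.08 in EOD-R (interval -0.34 to 0.18), with edgeR adjusted p of 0.631 and 0.909. Per unit length Bdnf was above Ntf3 in most libraries: the median ratio of their FPKM was 0.946 for AL, 1.49 for IF16 and 1.95 for EOD, and 1.78, 2.4 and 2 for AL-R, IF16-R and EOD-R. The ratio ranged from 0.665 to 1.96 in AL and from 1.04 to 2.76 in EOD, so these groups overlapped.

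Ntrk2, the TrkB receptor of BDNF, was the most abundant member and varied little (ENSMUSG00000055254, chromosome 13, 58806596 to 59133970, mm10, plus strand). AL replicates 1 to 5 had 405, 362, 369, 333 and 309 CPM. IF16 had 312, 338, 383, 377 and 371 CPM, and EOD had 367, 385, 351, 433 and 348 CPM. The range of AL held all 5 IF16 libraries and all but 1 of EOD, replicate 4. The log2 fold change against AL was 0.0021 in IF16 (interval -0.17 to 0.18) and 0.08 in EOD (interval -0.09 to 0.26), so the intervals exclude a rise of more than a fold of 1.13 and 1.2, and edgeR adjusted p were 0.993 and 0.582. AL-R libraries had 364, 363, 360, 358 and 387 CPM, those of IF16-R 377, 368, 399, 402 and 422 CPM, and those of EOD-R 383, 369, 358, 398 and 367 CPM. IF16-R had 3 of 5 libraries above the highest AL-R library. The difference was 0.10 (SE 0.0403, interval 0.02 to 0.19), with an edgeR unadjusted p of 0.0221 and an adjusted p of 0.438.

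Ntrk2 followed the length gradient. Over 30 libraries centred on their groups the r of Ntrk2 with the gradient was 0.90, and IF16-R libraries had gradients of 1.09 to 1.12 against 1.06 to 1.08 in AL-R. With the gradient as a covariate the difference between IF16-R and AL-R was -0.02 (edgeR unadjusted p = 0.714). The gradients of IF16-R and AL-R did not overlap, so this fit cannot tell the regimen from the gradient. The genes most like Ntrk2 were Map1b, a microtubule-associated protein (r = 0.947), and Kif1b, a kinesin motor (r = 0.946). Over the regimen libraries these r were 0.97 and 0.96, and over the refed ones 0.86 and 0.89.

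Sort1, sortilin, behaved much like Ntrk2 (ENSMUSG00000068747, chromosome 3, 108284091 to 108361511, mm10, plus strand). The r between these genes was 0.90 over 30 libraries, and that of Sort1 with the length gradient was 0.92. AL libraries had 220, 208, 203, 182 and 192 CPM, IF16 177, 191, 214, 213 and 217, and EOD 213, 219, 210, 256 and 200 CPM. The EOD library at 256 CPM was replicate 4, which had the steepest gradient of all. Against AL the log2 fold change was 0.01 in IF16 (interval -0.16 to 0.18) and 0.13 in EOD (interval -0.04 to 0.29), with edgeR adjusted p of 0.967 and 0.403. Libraries of AL-R lay within 217 to 223 CPM, those of IF16-R within 219 to 244 CPM and those of EOD-R within 214 to 232 CPM. The difference of IF16-R from AL-R was 0.08 (SE 0.0352, interval 0.01 to 0.15, edgeR unadjusted p = 0.0376, adjusted p = 0.488), and -0.01 with the gradient as a covariate. That fit cannot tell the regimen from the gradient here either. The gene most like Sort1 was its own relative Sorl1, the sorting receptor SorLA (r = 0.940), followed by Tacc1, a centrosome and microtubule protein (r = 0.936). Over the regimen libraries these r were 0.96 and 0.97, and over the refed ones 0.77 and 0.68. The annotation places Gm12523 antisense to Sort1, with 73 counts in all 30 libraries against at least 5756 counts of Sort1 in each.

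Ntrk3, the TrkC receptor of neurotrophin-3, varied most among the receptors (ENSMUSG00000059146, chromosome 7, 78192362 to 78578408, mm10, minus strand). AL replicates 1 to 5 had 76.1, 75.6, 61.9, 34.8 and 49.6 CPM. IF16 had 47.8, 65.8, 73.8, 67.8 and 69.2 CPM, and EOD had 72, 73.1, 58.3, 72.2 and 61.2 CPM. The 3 lowest libraries, AL replicates 4 and 5 and IF16 replicate 1, were those of the shallowest length gradient, and the r of Ntrk3 with the gradient was 0.89 over the regimen libraries and 0.18 over the refed ones. Its within-group SD of 0.237 log2 units was at the percentile 97.2 of the 500 genes nearest in level. Differences from AL were 0.12 in IF16 (interval -0.24 to 0.49) and 0.18 in EOD (interval -0.18 to 0.54), with edgeR adjusted p of 0.79 and 0.567. The EOD value was -0.08 with the gradient as a covariate and -0.11 without the 4 libraries of outlying gradient.

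Among the refed libraries Ntrk3 stood at 89, 85.6, 85.4, 79.2 and 74.3 CPM (AL-R), at 92.2, 79.2, 81.1, 83.8 and 80.6 CPM (IF16-R), and at 81.9, 77.9, 71.5, 79 and 70.7 CPM (EOD-R). EOD-R had 2 of 5 libraries below the lowest AL-R library and 4 of 5 below the lowest of IF16-R. The difference of EOD-R was -0.11 from AL-R (SE 0.0537, interval -0.23 to -0.0024, edgeR unadjusted p = 0.0458, adjusted p = 0.578) and -0.12 from IF16-R (SE 0.0537, interval -0.24 to -0.01, edgeR unadjusted p = 0.0325, adjusted p = 0.455). With the gradient as a covariate these were -0.12 and -0.09. The genes most like Ntrk3 were Tub, the tubby protein (r = 0.972), and Gpr63, an orphan G protein-coupled receptor (r = 0.965). Over the regimen libraries these r were 0.99 and 0.97, and over the refed ones 0.76 and 0.87.

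The Trk receptors kept a fixed order of levels. Per unit length Ntrk2 exceeded Ntrk3 in all 30 libraries, with ratios of FPKM from 1.58 to 3.7, the highest in AL replicate 4. For AL, IF16 and EOD the median ratio was 2.31, 2.07 and 2.2, and for AL-R, IF16-R and EOD-R it was 1.64, 1.85 and 1.93.

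Ngfr, the p75 receptor, was low and did not differ between the regimens (ENSMUSG00000000120, chromosome 11, 95568818 to 95587735, mm10, minus strand). AL replicates 1 to 5 had 6.77, 9.37, 11.3, 9.66 and 8.79 CPM. IF16 had 9.56, 9.82, 7.3, 9.96 and 8.78 CPM, and EOD had 11.1, 8.79, 8.52, 9.17 and 10 CPM. The AL libraries spanned those of both fasting groups. The log2 fold changes were -0.02 in IF16 (interval -0.28 to 0.25) and 0.05 in EOD (interval -0.21 to 0.32), with edgeR adjusted p of 0.968 and 0.83. Refed, Ngfr had means of 7.32 ± 0.864 CPM (AL-R), 8.51 ± 0.45 CPM (IF16-R) and 8.37 ± 1.27 CPM (EOD-R; SD, n = 5), and 3 of 5 IF16-R libraries lay above the highest AL-R library. The differences were 0.21 in IF16-R (SE 0.0995, interval 0.01 to 0.42, edgeR unadjusted p = 0.0452, adjusted p = 0.514) and 0.20 in EOD-R (SE 0.0998, interval -0.01 to 0.40, edgeR unadjusted p = 0.0648, adjusted p = 0.615). The former was 0.17 without AL-R replicate 3 or replicate 5, with edgeR unadjusted p of 0.108 and 0.117. The genes most like Ngfr were Pcolce, an enhancer of procollagen processing (r = 0.724), and Cd9, a tetraspanin abundant in myelin (r = 0.707). Over the regimen libraries these r were 0.81 and 0.78, and over the refed ones 0.56 and 0.56. The r of Ngfr with the choroid plexus markers was 0.51. The sortilin to p75 ratio of FPKM ran from 9.13 to 17.5 over the 30 libraries.

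Across the refed comparisons, 0 of the 6 genes passed edgeR's adjusted threshold. The share of all genes that passed was 0.17% in IF16-R against AL-R, 0.0426% in EOD-R against AL-R and 0.0182% in EOD-R against IF16-R. At an unadjusted p under 0.05, 3 of 6 members (Ntrk2, Ngfr and Sort1) stood in IF16-R against AL-R beside 9.58% of all genes. In EOD-R the only such member was Ntrk3, 1 of 6 against AL-R beside 8.5% of all genes, and 1 of 6 against IF16-R beside 9.75%. Both comparisons share the EOD-R libraries, and those with AL-R share the controls. Ntrk2 and Sort1 had an r of 0.75 over the refed libraries, so in IF16-R against AL-R they do not count separately. With the gradient as a covariate the edgeR unadjusted p there were 0.714 (Ntrk2), 0.169 (Ngfr) and 0.818 (Sort1). That fit cannot tell the regimen from the gradient. For the tests of a change with refeeding, 0 of 6 passed for IF16 (0.0474% of all genes) and 0 of 6 for EOD (0.0119%). None of the 6 had an unadjusted p under 0.05 there in the edgeR fit described, beside 7.21% and 10.3% of all genes. Some other fits to all libraries put Bdnf under that level. For the EOD change the edgeR unadjusted p was 0.043 with the replicate block, 0.0413 with the choroid plexus covariate, 0.0477 without the filter and 0.0158 with the Eomes covariate. DESeq2 gave an unadjusted p of 0.0498 for the EOD change. For the IF16 change the edgeR unadjusted p was 0.00608 with the Eomes covariate. The adjusted p in these fits ran from 0.376 to 0.594. Eomes was taken up for its r with Bdnf in these same libraries, so the p-values of the Eomes fits are no support for a change. With 1 library left out, the unadjusted p of Bdnf for the EOD change ran from 0.0242 to 0.129.

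**Figure D4:**
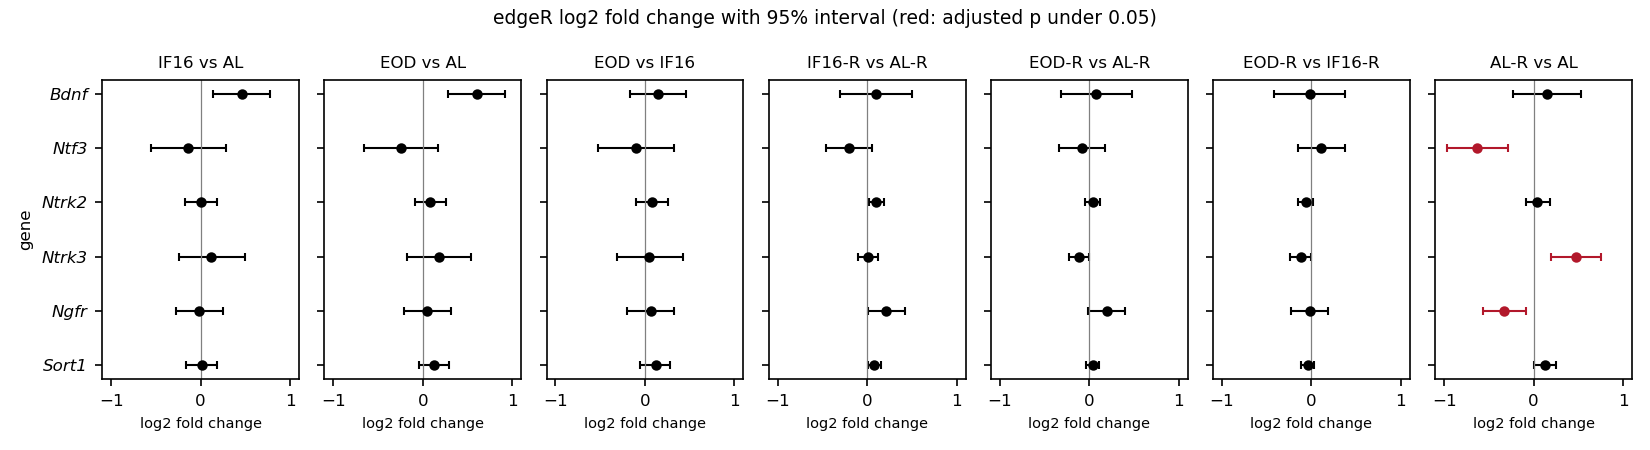
Log2 fold changes of the 6 genes with 95% intervals from edgeR in the 6 pairwise comparisons and in AL-R against AL, in red where the adjusted p is under 0.05. Bdnf lies clear of 0 in IF16 and EOD against AL without passing the adjusted threshold, and the 3 red genes are Ntf3, Ntrk3 and Ngfr in AL-R against AL.

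Between the ad libitum groups of 8 and 6 months, 3 of the 6 genes passed the threshold. Ntf3 was lower in AL-R (2.51 ± 0.204 against 3.89 ± 0.984 CPM, a log2 difference of -0.63, SE 0.167, with edgeR adjusted p = 0.0122) and so was Ngfr (7.32 ± 0.864 against 9.18 ± 1.64 CPM, -0.33, SE 0.116, edgeR adjusted p = 0.0421). Ntrk3 was higher (82.7 ± 5.87 against 59.6 ± 17.7 CPM, 0.47, SE 0.134, edgeR adjusted p = 0.0162). The same test called 23.9% of all genes, and age, deposited table and any batch that goes with the table cannot be told apart in it. AL replicates 4 and 5, with shallow gradients, weighed on it: without replicate 4 the change of Ntrk3 was 0.32 (edgeR adjusted p = 0.0641) and without replicate 5 it was 0.42 (edgeR adjusted p = 0.063). Without AL replicate 5 Ntf3 was at -0.51 (edgeR adjusted p = 0.0586). The call of Ngfr was lost in 7 of 10 fits with 1 library left out, those without AL replicates 2, 3, 4 or 5 or AL-R replicates 1, 3 or 5, with values of -0.34 to -0.23, as well as without the filter on low counts (edgeR adjusted p = 0.0591) and with the replicate number as a block (-0.32, edgeR adjusted p = 0.0508).

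With the length gradient as a covariate the changes of Ntf3, Ntrk3 and Ngfr were -0.43, 0.14 and -0.24, and none passed (edgeR adjusted p of 0.285, 0.509 and 0.44). With the choroid plexus markers as a covariate they were -0.44, 0.43 and -0.19, and none passed either (edgeR adjusted p of 0.0906, 0.0589 and 0.271). Both covariates moved with this comparison: gradients were 0.855 to 1.06 in AL and 1.06 to 1.08 in AL-R. Medians of the choroid plexus mean were 4.97 and 2.14 log2(CPM + 1), with overlapping ranges. These fits therefore cannot tell the change between the collections from the gradient or the choroid plexus content. Of the other members, Bdnf was at 0.15 (edgeR adjusted p = 0.581), Ntrk2 at 0.04 (edgeR adjusted p = 0.667) and Sort1 at 0.13 (edgeR adjusted p = 0.112). With the Eomes level as a covariate Bdnf and Sort1 also passed, at 0.34 and 0.15 (edgeR adjusted p of 0.00877 and 0.0451), and Sort1 passed without AL replicate 1 (0.17, edgeR adjusted p = 0.0347). Eomes was taken up for its r with Bdnf in these same libraries, so a small p of Bdnf in that fit follows in part from the choice. Eomes itself was at -0.33 in this comparison (SE 0.337, edgeR adjusted p = 0.488).

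Ordered by mean level over the 6 groups, neighbours mostly lay within each other's spread. For Bdnf the order ran AL, AL-R, EOD-R, IF16-R, IF16 and EOD, from 11.8 to 18 CPM, and no step between neighbours exceeded the larger of their SDs. Ntf3 ran from IF16-R, EOD-R and AL-R up to EOD, IF16 and AL, from 2.19 to 3.89 CPM, again with no step above the SD. For Ntrk3 the order was AL, IF16, EOD, EOD-R, AL-R and IF16-R. Its steps from EOD to EOD-R (8.9 CPM) and from EOD-R to AL-R (6.5 CPM) exceeded the larger SD of each pair (7.05 and 5.87 CPM). The highest group mean exceeded the lowest by a fold of 1.1 for Ntrk2, 1.15 for Sort1 and 1.3 for Ngfr, with every step within the SD. The steps across collections carry the table as well as the age.

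Genes that make, process and release neurotrophins gave the single call of the wider pathway lists in the 6 pairwise comparisons. Of 18 tested genes for precursor processing and release, 1 passed in EOD against AL: Plat, tissue plasminogen activator, which starts the plasmin cascade that cleaves the BDNF precursor. Plat averaged 53 CPM (AL), 66.6 CPM (IF16) and 71.8 CPM (EOD; EOD against AL a log2 difference of 0.44, SE 0.0775, edgeR adjusted p = 0.0485). It ranked 10 by p among 16577 genes, of which 11, or 0.0664%, passed. With 1 library left out 2 to 6 genes passed, and 7 did with RLE scaling. Whether Plat was among them was not tested. Hap1, huntingtin-associated protein 1, which takes part in the transport of BDNF vesicles, was at 148 CPM in AL and 115 CPM in EOD (-0.36, SE 0.105, edgeR adjusted p = 0.247). The median log2 fold change of this list in EOD was 0.054, against -0.018 for all genes.

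Factors that control Bdnf transcription had no call of 24 tested in either fasting group. At an unadjusted p under 0.05, 5 were higher and 1 lower in EOD, beside 14.4% of all genes in either direction, and 3 higher and 0 lower in IF16, beside 9.92%. Npas4, an activity-induced factor that binds Bdnf promoters, averaged 5.35 CPM (AL), 9.79 CPM (IF16) and 13.4 CPM (EOD; EOD against AL 1.32, SE 0.331, edgeR adjusted p = 0.203). Bhlhe40 was at 76.2 CPM in AL and 90.6 CPM in IF16 (0.25, SE 0.0757, edgeR adjusted p = 0.327). In the refed groups Npas4 was at 5.55, 7.54 and 8.32 CPM in AL-R, IF16-R and EOD-R.

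Genes induced by activity or neurotrophins moved in both directions at the unadjusted level, and none of 23 passed the adjusted one. In EOD 10 were higher and 4 lower at an unadjusted p under 0.05, beside 14.4% of all genes in either direction, and in IF16 9 were higher and 4 lower, beside 9.92%. The list was chosen with earlier results of these data known, and both comparisons share the AL libraries. These counts are therefore no separate support for a response. Dusp6, a phosphatase of the ERK kinases, averaged 19 CPM (AL), 23.7 CPM (IF16) and 25.4 CPM (EOD; EOD against AL 0.42, SE 0.0955, edgeR adjusted p = 0.17). Nptx2, a neuronal pentraxin that clusters glutamate receptors, was at 3.4 CPM in AL and 1.82 in IF16 (-0.90, SE 0.201, edgeR adjusted p = 0.164). Chosen after their values were seen, Fos and Nr4a3 were at 1.14 and 0.97 in EOD, and Arc at -0.39, all with an unadjusted edgeR p under 0.05. The median of the list was 0.168 in EOD and 0.168 in IF16, against -0.018 and -0.006 for all genes. After refeeding 0 of the 23 in IF16-R, and 2 higher and 1 lower in EOD-R, had an unadjusted p under 0.05 against AL-R, beside 9.58% and 8.5% of all genes.

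Receptor partners and downstream genes had no call in the 6 pairwise comparisons. The 51 Trk adaptor and signalling genes had 9 higher and 2 lower in EOD against AL at an unadjusted p under 0.05, 3 higher and 6 lower in IF16, and 10 higher and 0 lower in IF16-R against AL-R. The shares of all genes at that level, in either direction, were 14.4%, 9.92% and 9.58%. Rap1a, a small GTPase of the sustained ERK branch, was at 55.2 CPM in AL-R and 61.6 CPM in EOD-R (0.16, SE 0.036, edgeR adjusted p = 0.171), and the adaptor Shc3 at 8.24 CPM in IF16-R and 6.48 CPM in EOD-R (-0.34, SE 0.0803, edgeR adjusted p = 0.193). Of 25 p75 partners, Mapk10 (JNK3) was at 207 and 228 CPM in AL-R and IF16-R (0.14, SE 0.0416, edgeR adjusted p = 0.28) and Smpd2, a neutral sphingomyelinase, at 18.6 and 16.4 CPM (-0.18, SE 0.0609, edgeR adjusted p = 0.345). Among 25 Trk modulators, the phosphatase gene Ptprs was at 424 CPM in IF16-R and 391 CPM in EOD-R (-0.11, SE 0.0317, edgeR adjusted p = 0.256), and Adora2a, an adenosine receptor that transactivates Trk receptors, at 3.58 CPM in AL and 2.59 CPM in EOD (-0.47, SE 0.143, edgeR adjusted p = 0.261). Of the family genes outside the 6, Ntf5 was at 0.537 CPM in AL and 0.158 CPM in IF16 (-1.75, SE 0.553, edgeR adjusted p = 0.347), from 29 counts or fewer per library. Sorcs1 was at 12.8 CPM in AL-R and 11.3 CPM in EOD-R (-0.18, SE 0.0797, edgeR adjusted p = 0.549).

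In AL-R against AL, where 23.9% of all genes were called, more of these lists passed. Of 24 Bdnf regulators, 9 were higher, among them Creb1, Crtc1, Crebbp, Mef2a, Rest, Ppargc1a, Rcor1 and Tet1, and 2 were lower (Usf1 and Hdac5). Of 51 Trk signalling genes, 16 were higher (Frs2, Sos1, Sos2, Rapgef1, Crkl, Braf, Rps6ka3, Rps6ka5, Pik3ca, Pik3r1, Pdpk1, Itpr1, Camk4, Kidins220, Irs1 and Gsk3b) and 4 lower (Frs3, Hras, Akt2 and Bad). Of 19 processing genes tested here, 1 was higher (Syt6) and 5 were lower (Pcsk2, Cpe, Hap1, Scg2 and Bsg). Of 25 p75 partners, 2 were higher (Traf6 and Mapk9) and 4 lower (Ngfrap1, Maged1, Arhgdia and Mapk10). Of 25 modulators, 5 were higher (Ptprd, Nedd4, Nedd4l, Usp8 and Magi2) and 3 lower (Tspan7, Cdk5 and Gipc1). Of 23 induced genes, 3 were lower (Vgf, Nptx2 and Npy) and 1 higher (Nptx1). Of 7 family genes tested, 2 were higher (Sorcs1 and Sorcs3) and 1 lower (Ntf5). The length gradient, which lowered the count of all genes called from 4030 to 223 as a covariate, moves with this comparison, and its part in each list was not tested.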

How the data were processed

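RNA-seq of 30 cerebellum libraries was used, and 12 ChIP samples were not analysed here. The authors deposited whole-number counts per gene in 2 tables of 15 libraries, with GeneLength as another column, and FPKM values per library. These FPKM values equal deposited counts over length and library total within a relative difference of 5e-12. The submitters' processing notes name STAR 2.5, HTSeq 0.6.1, DESeq2 2 and mm10. The handling of strand is not given in the sources used here. Counts were tested with edgeR 4.0.16 in R 4.3.3 (quasi-likelihood test, TMM, filterByExpr by group, Benjamini-Hochberg over all genes, adjusted p under 0.05). Pairwise comparisons used the 15 libraries of a table, and AL-R against AL and the changes with refeeding used all 30. Printed CPM are scaled over all 30. Standard errors come from the F statistic. Scripts were tested on simulated data. DESeq2 1.42.0, other scalings and filters, covariates, a replicate block and left-out libraries were alternatives, and the Eomes covariate and leaving out 4 libraries were chosen after seeing the data.

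The 6 genes and all lists were chosen with earlier results of these data known. Counts of list genes beside the shares of all genes are therefore descriptions and no test of a list. Of 7 pathway lists, every gene called in any comparison was named, apart from those not reported here, and otherwise the 2 per list with the smallest unadjusted p over the 6 pairwise comparisons. Like genes are the 2 protein-coding genes of at least 5 CPM with the highest r to a member. Pairs of libraries within a group differed by 4.25 to 135 chi-square units per degree of freedom, and none was a duplicate. At 51 to 162 counts per library for Ntf3, counting error is not small beside the spread between libraries.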

Additional observations from a re-analysis of the deposited data

Results flagged for a closer look

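For 36 groups of 5 libraries (6 genes in 6 groups), the highest or lowest library was compared with the rest by the gap to its neighbour over the range. Chance alone marks about 1 in 20 such groups. Bdnf in IF16-R replicate 1 was at 8.71 CPM against 14.6 CPM in the next library, and Eomes was at 19.3 CPM there. Ntf3 in IF16 replicate 4 was at 4.75 CPM against 3.41 CPM, and that library had the highest mean of choroid plexus markers of all, 5.42 log2(CPM + 1). Ntrk2 in AL-R replicate 5 was at 387 CPM against 364 CPM. The part of these features in the 3 values was not tested.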

How the results depend on the processing

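The 6 genes had 0 calls in all 6 pairwise comparisons and both tests of a change with refeeding under every alternative run, with 1 exception, Bdnf by DESeq2 in EOD against AL (1 call). Bdnf stayed higher in IF16 and EOD than in AL in all 19 alternatives of each, at 0.14 to 0.55 and 0.13 to 0.71. Of 1110 member fold changes under alternatives, 93 had another sign, 65 of them after a move smaller than 1 SE of an uncalled value, which was counted as no change, and 28 after a larger one.

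In AL-R against AL the members called were 3, and 0 with the length gradient, 0 with the choroid plexus markers, 5 with Eomes as covariate, 0 without the 4 libraries of outlying gradient, and 0 to 4 with 1 library left out (0 without AL replicate 5, 4 without AL replicate 1).

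Signs turned with the gradient as covariate for Bdnf in AL-R against AL (-0.09), Ntf3 in EOD-R against IF16-R (-0.12) and IF16-R against AL-R (0.05), Ntrk2 in AL-R against AL (-0.13), EOD against AL (-0.05), EOD-R against IF16-R (0.05), IF16-R against AL-R (-0.02) and the EOD change with refeeding (0.09), Ntrk3 in EOD against AL (-0.08), and Sort1 in AL-R against AL (-0.03), EOD-R against IF16-R (0.04), IF16-R against AL-R (-0.01) and the EOD change (0.03). With Eomes as covariate they turned for Bdnf in EOD against IF16 (-0.01) and IF16-R against AL-R (-0.12), Ngfr in IF16 against AL (0.13), Ntrk2 in EOD (-0.08) and IF16 against AL (-0.11), Ntrk3 in EOD against AL (-0.08), and Sort1 in EOD (-0.05) and IF16 against AL (-0.11). Without the 4 libraries they turned for Ntrk2 in AL-R against AL (-0.05), EOD against AL (-0.06), EOD against IF16 (-0.02) and the EOD change (0.10), Ntrk3 in EOD against AL (-0.11) and Sort1 in the EOD change (0.03). With the choroid plexus markers Ngfr turned in EOD against IF16 (-0.09).

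Counts of all genes called also moved, and the cause was not tested. In IF16 against AL (8) they were 94 by DESeq2, 3 with Eomes, 3 with choroid plexus markers, 61 with the gradient, 5 with only the 2 groups and 3 to 10 with 1 library left out. In EOD against AL (11) they were 130 by DESeq2, 1 with Eomes, 18 with choroid plexus markers, 7 with the gradient, 7 with RLE scaling, 2 without the 4 libraries and 2 to 6 with 1 left out. In EOD against IF16 (0) they were 1 by DESeq2, with the gradient, without the filter and with only the 2 groups. In IF16-R against AL-R (28) they were 106, 84 with Eomes, 0 with the gradient and 0 to 65. In EOD-R against AL-R (7) they were 77, 19 with Eomes, 16 with choroid plexus markers, 0 with the gradient, 11 without the filter, 4 with only the 2 groups and 0 to 16. In EOD-R against IF16-R (3) they were 119, 64 with Eomes, 0 with the gradient, 6 without the filter, 0 with only the 2 groups and 0 to 71. For the IF16 change with refeeding (8) they were 30 by DESeq2, 36 with the gradient, 13 without the 4 libraries and 5 to 16. For the EOD change (2) they were 15 by DESeq2, 1 with Eomes, 6 with the gradient, 4 without the filter, 4 without the 4 libraries and 0 to 6. In AL-R against AL (4030) they were 223 with the gradient, 1042 with choroid plexus markers, 405 without the 4 libraries and 830 to 6173.

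With the replicate number as a replicate block, all genes called were 4 in EOD against AL, 5 in IF16 against AL, 95 in IF16-R against AL-R, 45 in EOD-R against AL-R, 40 in EOD-R against IF16-R and 13 in the EOD change, and 0 of the 6 genes were called in any of these. In AL-R against AL the block left 2 of 3 calls among the 6, without Ngfr, and 4023 of all genes. Libraries of the same number had a correlation above 0.1 in 3 of 15 pairs of the regimens and 8 of 15 refed pairs, and 0 and 7 of 15 libraries correlated best with their own number. The labels give no shared animal, litter or batch for a number and not every pair was above 0.1, so the numbers were not treated as pairs, and the refed values are a hint from the data of something shared.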
